A study of Mus musculus with 6 samples.

Results

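The genes described here are a set of 10 that mark natural killer (NK) cells and cytotoxic lymphocytes: Gzma, Gzmb, Prf1, Ncr1, Klrd1, Klrb1c, Nkg7, Ccl5, Eomes and Tbx21. They were chosen by name, and every probe set that the array annotation assigns to 1 of these genes alone was kept. This gave 11 probe sets of 9 genes, among 45037 probe sets and 18193 named genes on the array. The 1 probe set found for Klrb1c is shared with another gene, so Klrb1c, which encodes the surface antigen NK1.1, has no value here.

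Spleen RNA was measured in 3 garlic-fed and 3 control mice, with 1 Affymetrix array per mouse. All were male mice of the C57BL/6J strain with no genetic alteration named, put on the diets at an age of 8 weeks and examined after 15 weeks. The garlic diet held 4% lyophilized raw garlic powder and the control diet held 4% cellulose in the same base feed. The study compared the spleens to find which mRNAs differ under dietary garlic.

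NK cells and cytotoxic T cells kill infected or transformed cells by releasing granules that hold perforin, which opens the target membrane, and granzymes, proteases that start cell death inside it. NK cells weigh signals from activating and inhibitory surface receptors before they release these granules. The T-box transcription factors T-bet, encoded by Tbx21, and Eomes direct the development of both kinds of lymphocyte. In the spleen these cells are a minority among B cells, T cells and red pulp cells, and several of the genes are also used by activated T cells.

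A probe set on these arrays is several short oligonucleotides, and most probe sets are assigned to 1 gene. The brightness of a probe set is summarized as a MAS5 signal on a linear scale. The median signal of an array was 119.7 to 128.8 in garlic-fed mice and 127.9 to 132.2 in control mice, and the trimmed mean of each array was 500. Signals under 23.5, the 20th percentile, were raised to that floor before log2 was taken, and limma was run on the 27022 probe sets whose mean log2 signal exceeded 6.08, the 40th percentile. All 11 member probe sets passed that filter and none of their signals lay under the floor. Differences are log2 fold changes of garlic minus control, and p-values were adjusted over all 27022 probe sets by the Benjamini-Hochberg method. With 3 arrays per group, precision is limited by their number.

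Most of the cytotoxic genes had a slightly lower mean in garlic-fed spleens, but no gene of the set passed the test. The log2 fold change was negative for 7 of the 9 genes, against 55.8% of all 12262 genes tested, and for 8 of the 11 probe sets, against 56.5% of all tested. Its median over the 9 genes was -0.23, against -0.03 over all genes, and the single values lay between -0.31 and 0.08. At an adjusted p under 0.05, 0 of 11 probe sets were called, against 0.237% of all probe sets tested (0.226% higher and 0.0111% lower). No member met the study's criterion, a fold above 1.8 with an unadjusted p under 0.05, against 0.921% of all probe sets higher and 0.596% lower. With an unadjusted p under 0.05, limma found 1 of 11 lower and 0 higher, against 5.44% lower and 5.58% higher of all, and the test named in the study's methods also found 1 lower. The groups did not overlap at 2 of 11 probe sets, both lower in garlic-fed mice, against 9.29% lower and 7.52% higher of all probe sets.

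**Figure D1:**
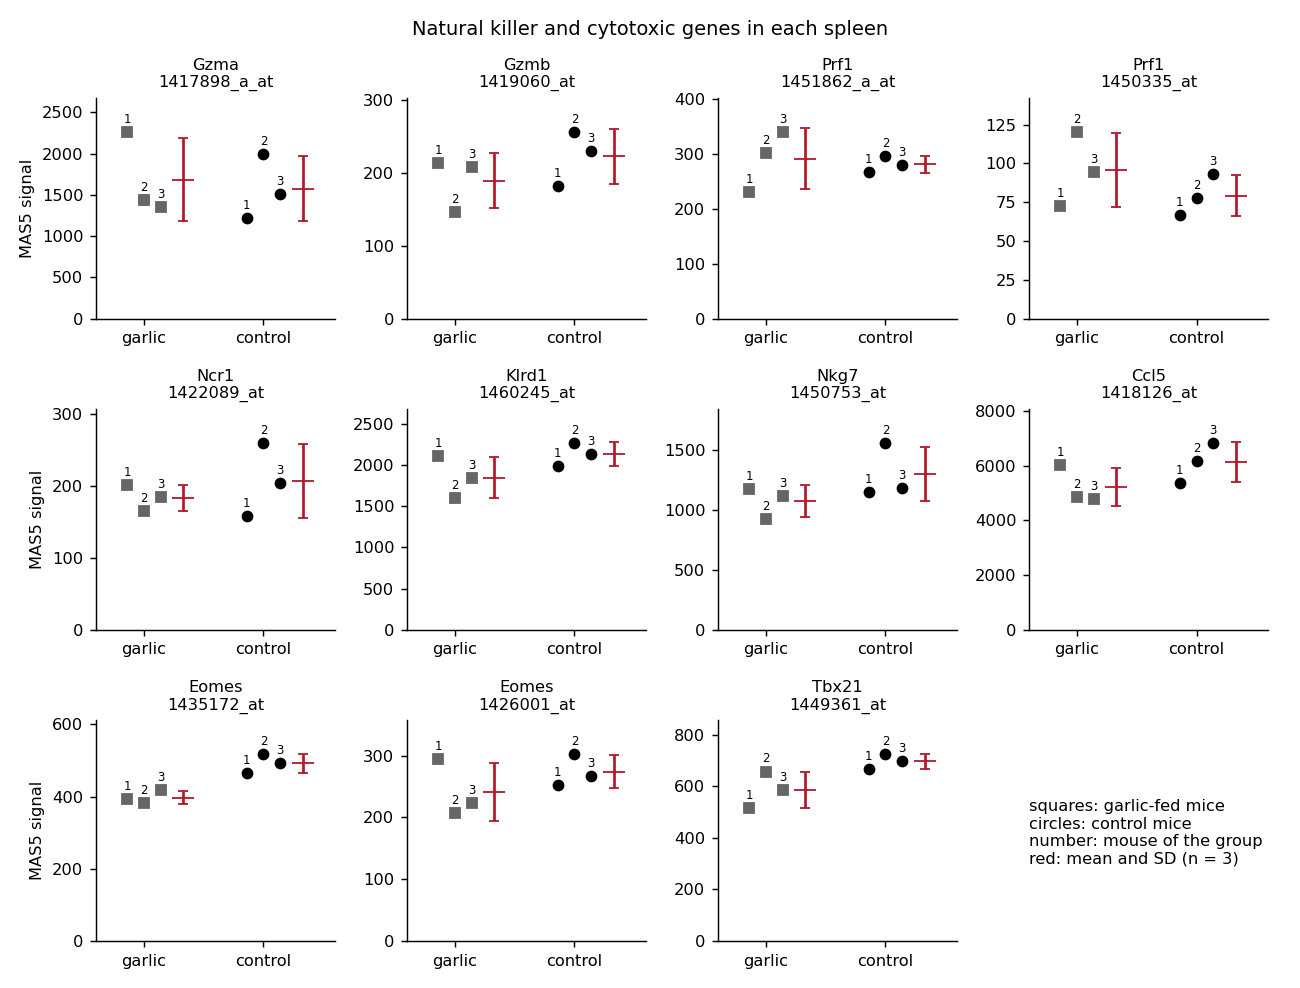
MAS5 signal (vertical axes, from 0) of the 11 member probe sets in 3 garlic-fed mice (squares, left) and 3 control mice (circles, right), numbered by mouse, with the group mean and SD in red. The garlic-fed mice all lie below the control mice at Tbx21 and at 1 of the 2 probe sets of Eomes, and the groups overlap in the other panels.

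The transcription factors were the members whose groups stood apart. Eomes, which directs NK cell maturation and the memory of CD8+ T cells, gave signals of 392.8, 381.1 and 417.3 in garlic-fed mice, against 464.3, 518.1 and 493.4 in control mice at its brighter probe set. Each garlic-fed mouse thus lay below each control mouse. The mean was 397 ± 18.5 in garlic-fed and 492 ± 26.9 in control mice (SD, n = 3 each), a fold of 0.807 with a 95% interval of 0.662 to 0.985. On the log2 scale the difference was -0.31 (SE 0.13), with an unadjusted p of 0.0374 that became 0.419 after limma's adjustment over all probe sets. The second probe set of Eomes read 295.5, 206.9 and 223.5 in garlic-fed mice, against 252.3, 303.1 and 268 in control mice. Garlic-fed mouse 1 lay among the control mice there, and the log2 fold change of -0.19 (SE 0.19) had an adjusted p of 0.771.

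Tbx21 encodes T-bet, which drives the interferon gamma program of Th1 and NK cells. Its signals were 514.1, 657.3 and 585.8 in garlic-fed mice, against 667.4, 725.8 and 696.9 in control mice. The groups did not overlap, although garlic-fed mouse 2 came close to control mouse 1. The mean was 586 ± 71.6 in garlic-fed and 697 ± 29.2 in control mice (SD, n = 3 each), and the log2 fold change was -0.26 (SE 0.13, adjusted p = 0.514).

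Promoters are shown for these T-box factors and for Nkg7 and Gzmb, which hold the T-box and AP-1 matches of the set, so that motifs of lymphocyte regulators can be seen beside the signals. The sequences are the 250 bases before the annotated start in RefSeq on the mouse build GRCm38.p6, and 8 of the 10 genes were matched in the table of promoters used. Ccl5 and Klrd1 were not matched. Both strands were searched for a T-box motif (GGTGTGA), a Runx motif (TGTGGT), an AP-1 motif (TGAGTCA), an Ets motif (AGGAAGT) and a STAT motif (TTCNNNGAA). Matches are in capitals, written as they read on the strand of the gene, and none overlaps another.
Tbx21 (chr11:97115332-97115581, minus strand): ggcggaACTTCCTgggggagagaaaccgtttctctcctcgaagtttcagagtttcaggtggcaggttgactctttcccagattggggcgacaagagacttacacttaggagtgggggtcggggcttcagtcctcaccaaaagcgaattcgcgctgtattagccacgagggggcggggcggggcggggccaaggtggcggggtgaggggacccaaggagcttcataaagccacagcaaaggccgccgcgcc
Eomes (chr9:118477939-118478188, plus strand): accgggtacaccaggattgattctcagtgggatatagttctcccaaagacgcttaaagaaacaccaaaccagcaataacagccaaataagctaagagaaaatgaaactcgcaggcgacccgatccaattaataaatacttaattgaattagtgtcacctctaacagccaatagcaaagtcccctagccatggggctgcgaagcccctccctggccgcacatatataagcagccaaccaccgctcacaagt
Nkg7 (chr7:43436888-43437137, plus strand): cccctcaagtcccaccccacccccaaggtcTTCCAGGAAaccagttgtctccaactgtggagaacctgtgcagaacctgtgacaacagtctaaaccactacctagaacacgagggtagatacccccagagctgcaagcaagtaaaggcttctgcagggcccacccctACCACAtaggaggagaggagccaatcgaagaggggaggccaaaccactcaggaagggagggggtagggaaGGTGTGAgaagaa
Gzmb (chr14:56262335-56262584, minus strand): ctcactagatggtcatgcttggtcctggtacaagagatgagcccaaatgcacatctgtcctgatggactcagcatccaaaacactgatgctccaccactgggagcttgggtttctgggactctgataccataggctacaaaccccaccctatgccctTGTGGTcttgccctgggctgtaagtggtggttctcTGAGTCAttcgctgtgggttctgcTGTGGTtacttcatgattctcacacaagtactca

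The Tbx21 stretch holds 1 Ets match, read on the opposite strand and starting 244 bases before the start of transcription. The Eomes stretch holds none of the 5 motifs, which says only that these letters are not in this window. Nkg7 has the only T-box match of the 8 genes, 13 bases before the start, besides a Runx and a STAT match, and Gzmb has 2 Runx matches around 1 AP-1 match. The Runx letters were found in 6 of the 8 genes (Gzma, Gzmb, Klrb1c, Ncr1, Nkg7 and Prf1), against 14% of 32851 promoters of the same length. The Ets letters were found in Prf1 and Tbx21, against 7.69% of all promoters. The shares of all promoters were 3.33% for T-box, 4.46% for AP-1 and 7.02% for STAT. A match is a run of letters and not a measured binding site, and the arrays hold no measure of binding.

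The mRNAs of the granzymes in the set, Gzma and Gzmb, differed between the diets by less than the SD within each group. Gzma encodes granzyme A, and its signals were 2267.7, 1435.8 and 1350.7 in garlic-fed mice, against 1223.8, 1998.7 and 1509.4 in control mice. The highest value belonged to garlic-fed mouse 1 and the lowest to control mouse 1, and the groups overlapped fully. Its log2 fold change was 0.08 (SE 0.22, adjusted p = 0.929), and the 95% interval of the fold ran between 0.759 and 1.48. Gzmb encodes granzyme B, which cleaves caspases and Bid in the target cell. It gave 213.5, 145.8 and 207.9 in garlic-fed mice, against 181.3, 256.1 and 229.6 in control mice, and the groups overlapped. Its log2 fold change was -0.24 (SE 0.22, adjusted p = 0.76), with a fold between 0.603 and 1.19 at 95%.

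Perforin mRNA was read by 2 probe sets that both had a positive and uncertain difference. The brighter Prf1 probe set gave 231.3, 302.4 and 340.5 in garlic-fed mice, against 266.3, 296.7 and 280.4 in control mice. The garlic-fed mice lay on both sides of the control mice, with a mean of 291 ± 55.4 in garlic-fed and 281 ± 15.2 in control mice (SD, n = 3 each). This gave a log2 fold change of 0.03 (SE 0.18, adjusted p = 0.967). The dimmer Prf1 probe set gave 72.5, 120.5 and 94.3 in garlic-fed mice, against 66.8, 77.8 and 93.3 in control mice, and its log2 fold change was 0.25 (SE 0.30, adjusted p = 0.822). Its 95% interval, a fold of 0.75 to 1.90, is the widest of the set, so neither a fall nor a rise of that size can be told from these 6 arrays.

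Nkg7 encodes a membrane protein of cytotoxic granules that takes part in their release. It gave 1178.5, 925.2 and 1121.6 in garlic-fed mice, against 1154.8, 1563.8 and 1184.5 in control mice. Garlic-fed mouse 1 lay between the control mice, and the other garlic-fed mice lay below all of them. Nkg7 had a log2 fold change of -0.27 (SE 0.15), with an unadjusted p of 0.0958 and an adjusted p of 0.553 in limma.

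The mRNAs of NK cell receptors also overlapped between the diets. Ncr1 encodes NKp46, an activating receptor that in the mouse marks nearly all NK cells. Its signals were 202.1, 165.9 and 184.4 in garlic-fed mice, against 158.2, 260.5 and 204.1 in control mice. The control mice enclosed the garlic-fed mice on both sides, and the log2 fold change was -0.15 (SE 0.22, adjusted p = 0.866). Klrd1 encodes CD94, the partner chain of NKG2 receptors other than NKG2D, and these pairs read the class I molecule Qa-1. It gave 2105.5, 1601.6 and 1840.1 in garlic-fed mice, against 1984.6, 2271.6 and 2139 in control mice. Garlic-fed mouse 1 lay above control mouse 1, and the other garlic-fed mice lay below every control mouse. Klrd1 had a log2 fold change of -0.21 (SE 0.12), with an unadjusted p of 0.1 and an adjusted p of 0.56 in limma.

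Ccl5 encodes the chemokine RANTES, which cytotoxic lymphocytes store and secrete to draw in T cells and monocytes. It gave 6015.2, 4844.5 and 4785.2 in garlic-fed mice, against 5369.7, 6176.7 and 6832.5 in control mice. Garlic-fed mouse 1 again lay among the control mice, and the other garlic-fed mice lay below them. The mean was 5215 ± 694 in garlic-fed and 6126 ± 733 in control mice (SD, n = 3 each), and the log2 fold change was -0.23 (SE 0.12, adjusted p = 0.505).

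**Figure D2:**
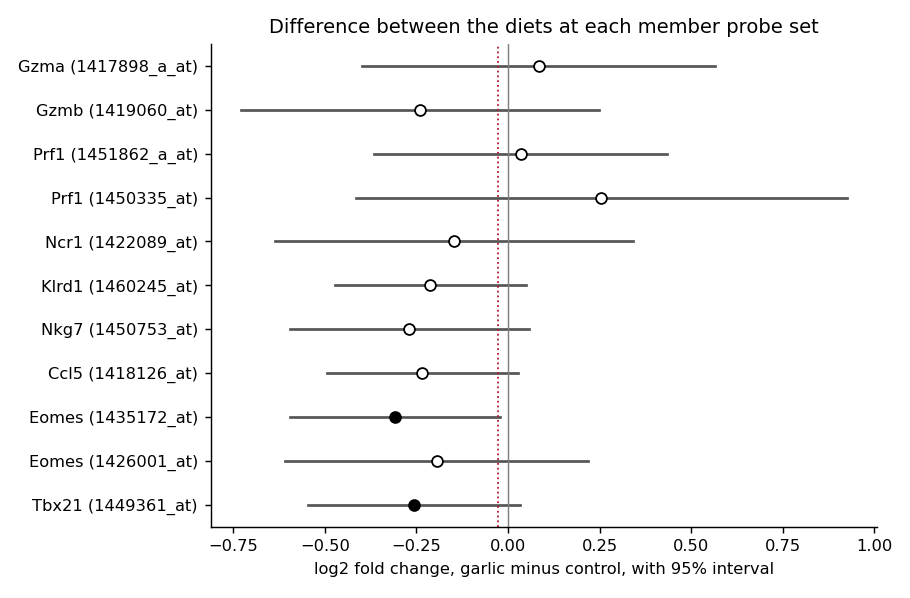
Log2 fold change of garlic minus control (horizontal axis) with its 95% interval (bars) for each member probe set, with filled points where the groups do not overlap, a solid line at 0 and a dotted line at -0.03, the median of all genes tested. Only the interval of the brighter Eomes probe set, around -0.31, lies wholly below 0.

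Within a diet, the members tended to rank the mice alike. Of the control mice, mouse 1 gave the lowest signal at 11 of 11 member probe sets, and this was so at 34.8% of all probe sets tested. Control mouse 2 gave the highest control signal at 9 of 11, against 32% of all probe sets. Among the garlic-fed mice the order was looser, with mouse 1 highest at 7 of 11 (36.6% of all) and mouse 2 lowest at 6 of 11 (33.9% of all). Averaged over the 9 genes, the log2 signal relative to each gene's mean over the 6 mice was 0.0078, -0.20 and -0.068 in garlic-fed mice 1, 2 and 3, against -0.096, 0.26 and 0.096 in control mice 1, 2 and 3. Control mouse 1 thus lay below garlic-fed mouse 1 and garlic-fed mouse 3 in this mean. The member probe sets come from the same 6 RNA samples, so these counts are not independent of each other and carry no test.

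A list drawn up for inhibitory receptors had 13 tested genes, most of them Ly49, NKG2 and related lectin receptors, and showed the same order of mice. Not all 13 are inhibitory receptors, since Klra8 encodes the activating receptor Ly49H and Ptpn6 a phosphatase. Control mouse 1 was the lowest control mouse for 11 and control mouse 2 the highest for 12 of the 13 genes. Other cell type lists were mixed in this. Control mouse 1 was the lowest and control mouse 2 the highest control mouse for 5 and 6 of 7 neutrophil genes, 4 and 5 of 6 dendritic cell genes, 4 and 6 of 8 macrophage genes, 6 and 3 of 8 erythroid genes and 4 and 3 of 5 fat tissue genes. For 12 T cell genes these counts were 5 and 0, and for 6 B cell genes and 7 pancreas genes both were 0. The order is thus not particular to the members. The similar sequences of the Ly49 genes mean that their probe sets may read each other's mRNA.

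Signal of pancreatic mRNAs, which a dissected spleen can carry, varied in the opposite order to the member mean among the control mice. Summed over 7 pancreas genes, the signal came to 2002, 24019 and 2074 in garlic-fed mice 1, 2 and 3, against 94581, 12370 and 43829 in control mice 1, 2 and 3. Control mouse 1 had the highest pancreatic sum and the lowest member signals of its group, and garlic-fed mouse 2 likewise had the highest pancreatic sum of its group. Garlic-fed mouse 2 also had the lowest member mean of its group, while garlic-fed mice 1 and 3 had nearly equal pancreatic sums. Between the diets the median log2 fold change was negative for both, at -4.96 for the pancreas genes and -0.23 for the members. The part of pancreatic signal in the member values was not tested. Without these 2 arrays the median log2 fold change of the members was -0.24, with 8 of 9 genes negative and 0 probe sets called. Summed over 5 fat tissue genes, the signal was 19966, 20795 and 8979 in garlic-fed mice 1, 2 and 3. It was 10741, 11274 and 11323 in control mice 1, 2 and 3, and the part of fat signal was not tested either.

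The 5 genes whose log2 signals were most like the mean of the members over the 6 arrays were Srp54b (Pearson r = 0.981), Dcdc2b (0.974), Galnt18 (0.963), Ctla2b (0.960) and Gnb4 (0.956). They were taken from 5582 genes with an SD of log2 signal of at least 0.2, of which 35 had an r above 0.9. Ctla2b, a gene first found in activated T cells and mast cells of the mouse, gave 858.6, 710.9 and 715.3 in garlic-fed mice, against 739.1, 1031.2 and 892.9 in control mice. It shows the same high value of control mouse 2. All these points share the 6 arrays, so the correlations are a description.

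Genes that work beside the members were described from 7 lists by role, which named 149 genes, of which 124 had a probe set and 112 were tested. None was called at an adjusted p under 0.05. The log2 fold change was negative for 79 of 112 (70.5%), against 55.8% of all genes, with a median of -0.11. At an unadjusted p under 0.05, 16 genes (14.3%) were lower and 2 (1.79%) were higher, against 6.24% lower and 6.89% higher of all genes. The groups stood apart for 20 lower genes (17.9%) and 3 higher ones (2.68%), against 10.7% and 9.13% of all genes. These shares of all genes also belong beside the counts of each single list below. Centring each array on its T cell and B cell genes, a setting chosen after seeing the data, moves the log2 fold changes of all genes alike. It put the median of the related genes at 0.056 and that of all genes at 0.14, with 48 of 112 related genes negative, against 25.4% of all genes.

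**Figure D3:**
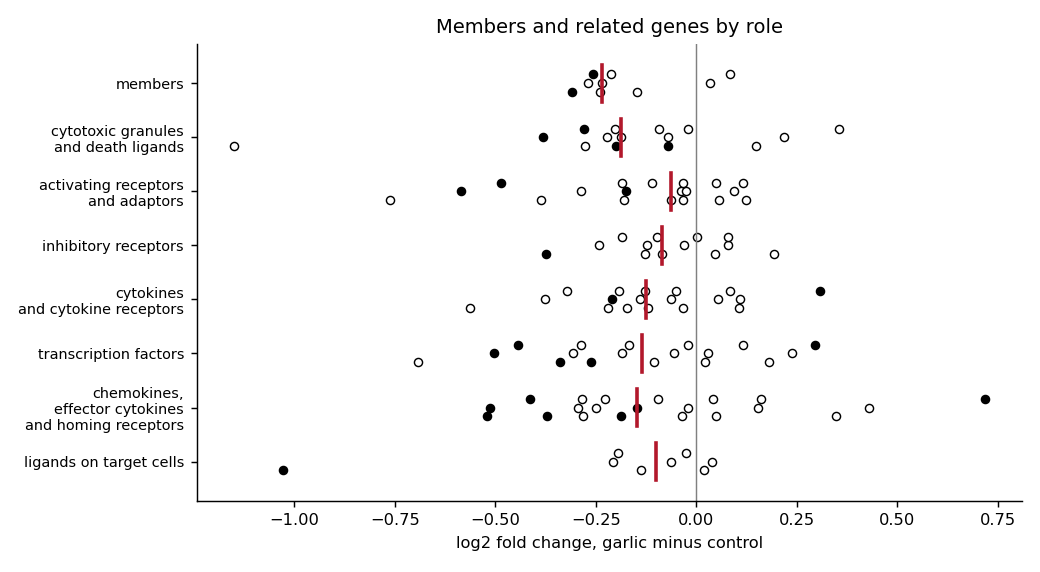
Log2 fold change of garlic minus control (horizontal axis) for each gene of the member set and of 7 related lists, 1 point per gene, filled where the 3 garlic-fed and 3 control signals do not overlap, with the list median as a red bar. The medians lie between -0.23 for the members and -0.06 for activating receptors, and single genes reach -1.15 and 0.72.

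The list of cytotoxic granules and death ligands had 15 tested genes, of which 12 were negative, 2 were lower at an unadjusted p under 0.05 and 4 stood apart, with a median of -0.19. Tnfsf10, the death ligand TRAIL, gave 209.9, 195.8 and 195.2 in garlic-fed mice, against 266.3, 284.5 and 234.1 in control mice (log2 fold change -0.38, adjusted p = 0.438). Its second tested probe set gave a log2 fold change of -0.63. Rab27a and Unc13d, which dock and prime the granules at the membrane, had log2 fold changes of -0.28 and -0.20, but other probe sets of Rab27a gave -0.09 and 0.02, and Unc13d was at -0.12 without garlic-fed mouse 3. Srgn, the proteoglycan core that packs granzymes, was at -0.07, a value that turned to 0.0074 with median centring of each array and to 0.093 with centring on T and B cell genes.

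Outside the naming rule, and picked after its values were seen, Gzmk had the lowest log2 fold change of that list, at -1.15 (SE 0.35, adjusted p = 0.248). Gzmk encodes granzyme K, found mainly in memory T cells. Its signals were 151.4, 206.6 and 475.9 in garlic-fed mice, against 567.2, 651.2 and 440.2 in control mice. Garlic-fed mouse 3 lay above control mouse 3 and apart from the other garlic-fed mice, and the groups overlapped. With 1 array left out the log2 fold change lay between -1.63 without garlic-fed mouse 3 and -0.80 without garlic-fed mouse 1, with adjusted p-values of 0.0215 to 0.643.

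Among 19 activating receptors and adaptors, 14 were negative, 2 were lower at an unadjusted p under 0.05 and 3 stood apart, with a median of -0.06. Slamf7, a self-binding receptor of NK cells, plasma cells and other leukocytes, gave 523.9, 485 and 588 in garlic-fed mice, against 811.4, 795 and 781.3 in control mice. The control mice lay close together and every garlic-fed mouse was well below them. The log2 fold change was -0.58 (SE 0.12) with an adjusted p of 0.0976, the smallest among the related genes named. Sh2d1a, the adaptor SAP that signals beneath SLAM receptors in T and NK cells, gave 364.9, 439.9 and 380.9 in garlic-fed mice, against 532.5, 559.3 and 562.8 in control mice (log2 fold change -0.48, SE 0.13, adjusted p = 0.198). Hcst, the adaptor DAP10 of the NKG2D receptor, was at -0.18 (adjusted p = 0.581). Of the 13 tested genes of the inhibitory receptor list, 8 were negative with a median of -0.09. Only Cd96, which binds the nectin-like protein CD155, stood apart in that list. Its log2 fold change was -0.37 (SE 0.16, adjusted p = 0.441), and -0.23 without garlic-fed mouse 3.

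Of 18 cytokine and cytokine receptor genes, 13 were negative, with a median of -0.12, and an unadjusted p under 0.05 was reached by 1 lower and 1 higher gene. Il7r, the receptor that keeps naive and memory T cells alive, was the higher one, with 3834, 3969.9 and 3674.8 in garlic-fed mice, against 2805.4, 3262.1 and 3213.4 in control mice. No control mouse reached the lowest garlic-fed mouse, and the log2 fold change was 0.31 (SE 0.09, adjusted p = 0.226), with 0.27 at its second probe set. Stat5a, which carries IL-2 and IL-15 signals, was at -0.21 (adjusted p = 0.553).

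Transcription factors other than the members had 12 of 18 genes negative, 4 lower at an unadjusted p under 0.05 and a median of -0.14. Tox, needed for the development of NK and CD4+ T cells, gave 238, 345.5 and 341.7 in garlic-fed mice, against 417.9, 449.8 and 426.8 in control mice. Its log2 fold change was -0.50 (SE 0.17, adjusted p = 0.305), and its other probe sets gave -0.60 and -0.73. Ikzf2, the factor Helios of regulatory T cells, was at -0.44 and -0.47 at its tested probe sets, with an adjusted p of 0.197 at the first. Ikzf3, the factor Aiolos of B cells and other lymphocytes, gave 2094.4, 2100.4 and 2021.2 in garlic-fed mice, against 2845.5, 2715.3 and 2328.5 in control mice (log2 fold change -0.34, adjusted p = 0.227). Another Ikzf3 probe set gave -0.56 and the remaining one -0.0067. Gata3 was the 1 factor that stood apart as higher, with a log2 fold change of 0.29 and an adjusted p of 0.664.

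The list of chemokines, effector cytokines and homing receptors had 14 of 21 genes negative, a median of -0.15, and 5 lower genes and 1 higher gene with an unadjusted p under 0.05. Its higher gene was Cxcr4, which holds lymphocytes and precursor cells near CXCL12. Cxcr4 gave 4755.1, 7062.5 and 4762.9 in garlic-fed mice, against 2503.2, 3540.7 and 4050.6 in control mice (log2 fold change 0.72, SE 0.19, adjusted p = 0.187). The other receptors named had negative values at their brightest probe sets, and none of them passed the adjusted test. Cxcr3, the receptor of interferon-induced chemokines and a known target of T-bet, gave 1265.8, 1317.1 and 1721.8 in garlic-fed mice, against 1908.7, 2046.2 and 2133.6 in control mice (log2 fold change -0.51, SE 0.13, adjusted p = 0.156). With 1 array left out, the adjusted p of Cxcr3 was 0.0351 without garlic-fed mouse 3, its highest garlic-fed mouse, and 0.278 to 0.398 in the other 5 cases. Cx3cr1, the fractalkine receptor of monocytes and mature NK cells, gave 445.9, 468.2 and 379.7 in garlic-fed mice, against 560.6, 706.7 and 591 in control mice (log2 fold change -0.52, adjusted p = 0.205). Ccr2 was at -0.41 (adjusted p = 0.372) at its brightest probe set, and at -0.24 there without garlic-fed mouse 3, while its other probe sets lay between -0.54 and 0.24.

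Of 8 ligands that target cells show to NK receptors, 6 were negative with a median of -0.10, and 1 stood apart. Clec2d, the ligand that the inhibitory receptor NKR-P1B reads on healthy cells in the mouse, gave 322.9, 317.8 and 155.1 in garlic-fed mice, against 541.5, 532.8 and 468.6 in control mice. The mean was 265 ± 95.4 in garlic-fed and 514 ± 39.8 in control mice (SD, n = 3 each), a fold of 0.490. Its log2 fold change was -1.03 (SE 0.26, adjusted p = 0.162), and -0.68 (adjusted p = 0.09) without garlic-fed mouse 3, which gave the lowest signal.

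**Figure D4:**
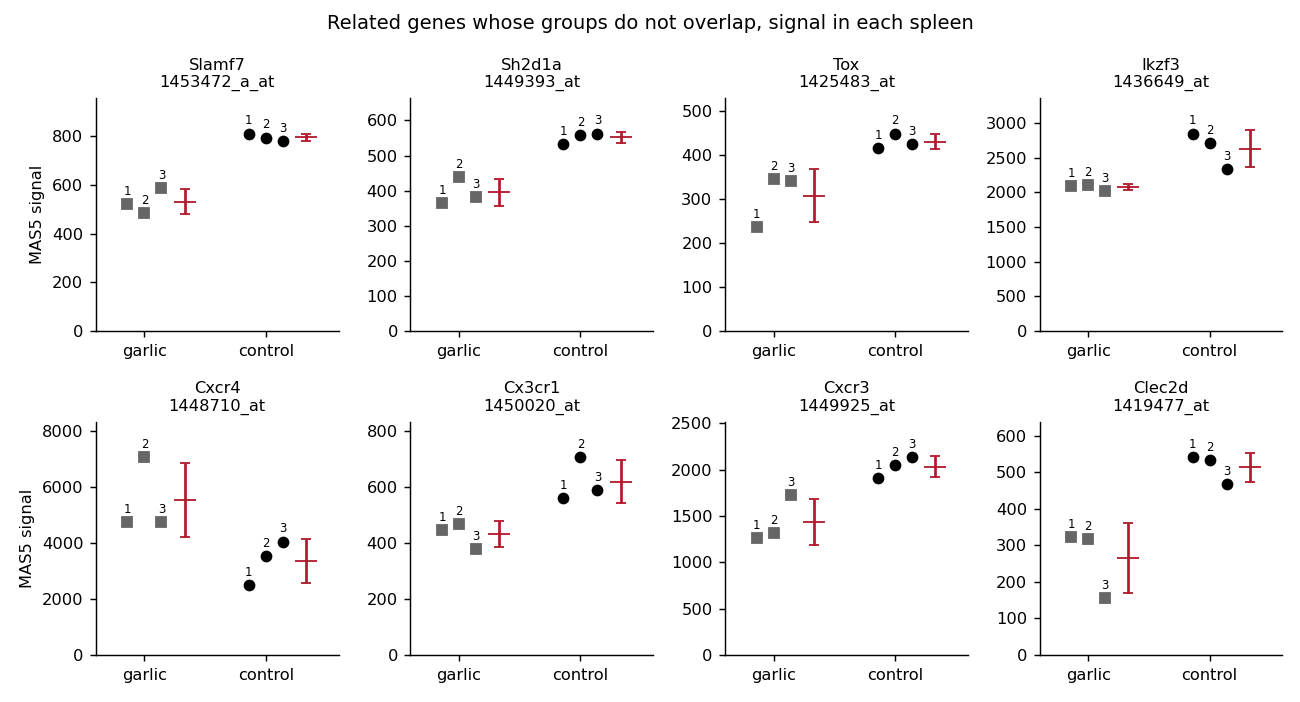
MAS5 signal (vertical axes, from 0) of 8 related genes, in 3 garlic-fed mice (squares, left) and 3 control mice (circles, right), numbered by mouse, with the group mean and SD in red. The 8 were picked from the related genes whose groups do not overlap, of which 20 were lower and 3 higher. Cxcr4 is higher in each garlic-fed mouse, from 4755.1 upward against at most 4050.6 in control mice. The other 7 genes shown are lower, with adjusted p-values of 0.0976 to 0.305 in limma. Not shown are the higher genes Il7r (0.226) and Gata3 (0.664), and lower genes such as Srgn (0.753).

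Genes of other spleen cells were set beside the members, and with RNA of the whole organ fewer cells of a type and less RNA per cell cannot be told apart. All 12 T cell genes tested were negative, with a median of -0.15, against 55.8% negative among all genes. At an unadjusted p under 0.05 in limma 1 (8.33%) was lower, against 6.24% of all genes. The groups stood apart as lower for 4 (33.3%), against 10.7% of all genes. All 6 B cell genes were negative, with a median of -0.16. The 8 erythroid genes, which mark red cell precursors, were all positive, with a median of 1.12. Of these, 3 were called higher at an adjusted p under 0.05, against 42 of all 12262 genes tested. Genes of neutrophils and their precursors had a median of 0.59, macrophage genes 0.12 and dendritic cell genes -0.21. The median log2 signal of the T cell list relative to the control mean was -0.19, -0.10 and -0.18 in garlic-fed mice, against -0.0068, -0.042 and 0.048 in control mice, so these groups did not overlap. By this measure the groups also stood apart for the dendritic cell list, as lower, and for the neutrophil and erythroid lists, as higher. They overlapped for the B cell and macrophage lists. The same measure of the members was -0.044, -0.33 and -0.20 in garlic-fed mice, against -0.16, 0.094 and 0.0052 in control mice, with garlic-fed mouse 1 above control mouse 1.

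**Figure D5:**
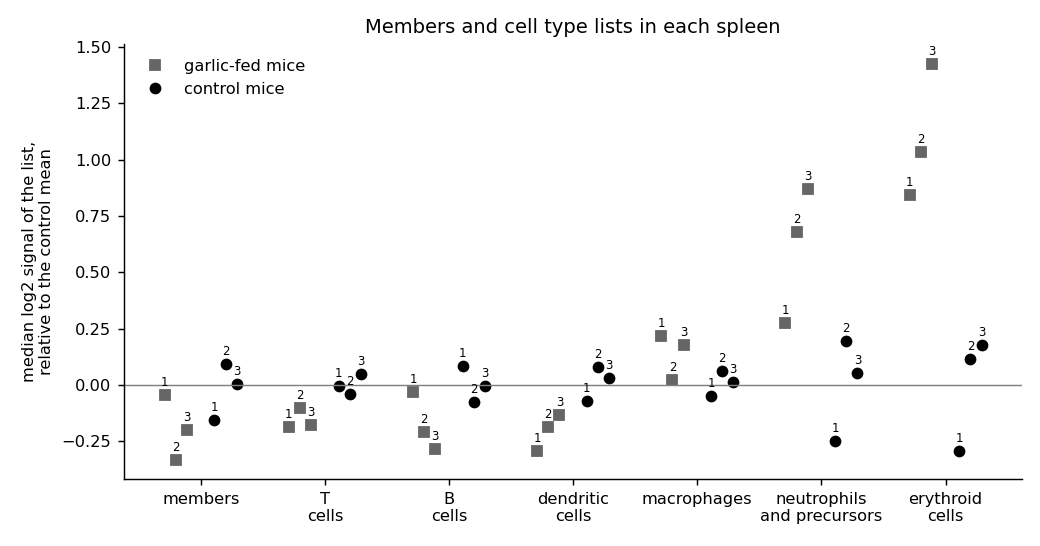
Median log2 signal of the members and of 6 cell type lists, relative to the control mean of each gene (vertical axis), in 3 garlic-fed mice (squares, left) and 3 control mice (circles, right), numbered by mouse. The erythroid list lies at 0.84 to 1.42 in garlic-fed mice and at -0.29 to 0.18 in control mice, while the members overlap between the diets.

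With each array centred on its T cell and B cell genes, the median log2 fold change of the members was -0.07, with 6 of 9 genes negative, against 25.4% of all genes, and 0 probe sets called. The median of the members minus that of all genes was -0.21 with and without this centring, since it shifts every gene alike. In that setting Eomes was at -0.15 (adjusted p = 0.673) and Tbx21 at -0.093 (adjusted p = 0.805). The part of erythroid and other cells in the member values was not tested.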

How the data were processed

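The deposited values were MAS5 intensity signals on a linear scale, made by the authors before deposit. The MAS5 version, the scaling (a trimmed mean of 500 with 2% left out at each end, read from the values) and any batch are not given in the sources used here. After 64 control probe sets were left out, 34945 of 45037 probe sets had 1 gene name in the array annotation, 932 several and 9160 none, and 34741 were matched to a mouse gene by identifier. Of a gene's probe sets, the one of highest mean log2 signal stood for the gene, and those of several genes were not used. The test was limma 3.58.1 (R 4.3.3), with lmFit and with eBayes letting the variance follow the signal. It was tried on simulated data, but the changes planted there were larger than that of any member. The simulation thus says nothing about finding changes of the members' size. Plots used matplotlib 3.10.9 and Python 3.11.15.

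The members and lists were chosen with earlier results of these data known. Named are all members, up to 4 genes of each related list with the largest log2 fold change among those whose groups do not overlap, and the 5 genes most like the members. Cell type lists are given by counts.

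The alternatives changed the normalization (quantile, or the median of each array), the floor (none, or the 40th percentile), the filter (none, or the 60th percentile), the variance (without a trend), the test (the one-way ANOVA of the methods, with and without log2), the pairing (a replicate block), the arrays (each left out in turn) and the value of a gene (averaging its probe sets). Leaving out the array of most pancreatic signal in each group and centring on T cell and B cell genes were chosen after seeing the data.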

Additional observations from a re-analysis of the deposited data

How the results depend on the processing

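The number of member probe sets called stayed at 0 under all 18 alternatives, while 64 probe sets of the whole array were called in the main setting. That number was 151 with median centring of each array, 11 without a filter, 0 without a trend of variance, 0 with the ANOVA of the methods on log2 signals and 0 with it on linear ones, 36 without the array of most pancreatic signal in each group, 346 with centring on T cell and B cell genes, and 0 to 111 when 1 array was left out (0 without control mouse 1 or control mouse 2, 33 without control mouse 3 and 111 without garlic-fed mouse 1). With the replicate number as a block it was 295, but the numbers only name the mice: same-numbered mice deviated together with r of 0.00064, -0.18 and 0.078.

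The 1 member probe set lower at an unadjusted p under 0.05, of Eomes, was lost, with a count of 0, under quantile normalization, median centring, the replicate block, the pancreatic arrays left out and centring on T cell and B cell genes. With 1 array left out the count was 0 to 2. Eomes stayed past that threshold without garlic-fed mouse 3 or control mouse 1 and missed it without each of the other 4 mice. Without garlic-fed mouse 1 the probe sets past it were those of Klrd1 and Ccl5, and without garlic-fed mouse 2 that of Tbx21. The median of the members, -0.23, was -0.33 to -0.11 with 1 array left out (-0.11 without garlic-fed mouse 2 and -0.13 without control mouse 2) and -0.070 with centring on T cell and B cell genes, and it stayed negative in all 17 alternatives. The log2 fold change kept its sign throughout for 6 of 9 member genes. With 1 array left out, Gzma lay between -0.15 and 0.27 and Prf1 between -0.087 and 0.19. Gzma turned to -0.15 without garlic-fed mouse 1 and to -0.084 without control mouse 1. Prf1 turned to -0.0011 without garlic-fed mouse 2, -0.087 without garlic-fed mouse 3, -0.0036 without control mouse 1 and -0.040 without the pancreatic arrays. Ncr1 turned to 0.031 without control mouse 2 and to 0.015 with centring on T cell and B cell genes. The lowest adjusted p of any member gene was 0.298. Of 20 related genes named, 19 kept their sign, and Srgn turned to 0.0074 with median centring and 0.093 with centring on T cell and B cell genes. In 4 single settings a related gene passed the adjusted threshold, which were Clec2d with the block (0.0468), Slamf7 with the mean of probe sets (0.0483), and Cxcr3 (0.0351) and Gzmk (0.0215) without garlic-fed mouse 3. Slamf7 has 1 probe set, so averaging probe sets did not change its own signals. The cause of the moves listed here was not tested.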
